A study of Homo sapiens with 6 samples.

Results

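Laminins are large, cross-shaped proteins of the basement membrane, the sheet of matrix under epithelia and early embryonic cell layers. Each is built from an alpha, a beta and a gamma chain, which come from separate genes and are joined inside the cell before secretion. The alpha chain carries the main binding sites for integrins and dystroglycan, and the gamma chain binds nidogen, which links laminin to collagen IV. LAMA1, LAMB1 and LAMC1 are the chains of the first laminin of the embryo, and LAMA5 is the alpha chain of the laminin most used to grow human pluripotent stem cells.

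The 9 chain genes described here are LAMA1, LAMA2, LAMA3, LAMA4 and LAMA5 (alpha), LAMB1 and LAMB2 (beta) and LAMC1 and LAMC3 (gamma). They were taken by symbol from the 40396 Ensembl genes of the deposited expression table, whatever their values. All 6 libraries came from H1, which is 1 human embryonic stem cell line, so that the results stand for this line only. The cells were grown on Matrigel, a basement membrane extract rich in laminin, and were directed to definitive endoderm (DE), the layer that gives rise to gut, liver and pancreas. Both groups received 50 ng/ml activin A for 3 days, and for the first 24 h also 2.5 µM CHIR99021, which activates Wnt signaling. The control group (3 libraries) received DMSO, and the other group (3 libraries) received 0.5 µM saracatinib (SAR) over all 3 days. SAR is known as a blocker of the Src family of kinases. The paper reports that at this dose Src phosphorylation was not effectively lowered, whereas that of focal adhesion kinase (FAK) fell at some of its sites. The comparison asks what SAR at this low dose did to gene expression during DE differentiation. The labels call the libraries separate samples and do not say whether each came from its own culture, so p-values measure only the spread between these libraries.

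Levels are FPKM, the fragments of a gene per kilobase of its length and scaled to the library's total. The FPKM stood on 18877964 to 24419937 reads per control library and 16681280 to 18389543 per SAR library. Markers of DE were present in both groups, with SOX17 at 31.6 ± 1.84 FPKM (SD, n = 3) in control and 67.5 ± 18.3 with SAR. Of 6 such markers 2 rose with SAR (SOX17 and FOXA2) and 4 fell (CXCR4, GATA6, CER1 and EOMES). Of 4 pluripotency genes, SOX2 rose (0.88 in log2, limma adjusted p = 0.0153), NANOG fell (-1.30, 0.000672) and POU5F1 and ZFP42 did not pass, with POU5F1 at 181 ± 40.9 FPKM in control and 219 ± 4.43 with SAR. Of 5 mesoderm genes 3 were tested, of which TBXT (1.69) and TBX6 (0.82) rose and MIXL1 (-1.35) fell. Of 4 mesenchyme markers 2 were tested, and neither passed. COL1A1 was at 23.8 ± 2.17 FPKM in control and 26.0 ± 3.14 with SAR, and COL1A2 at 16.3 ± 1.87 and 15.7 ± 2.29. Summed markers of neural ectoderm lay between 0.0029 and 0.17 FPKM in the 6 libraries. In such bulk samples, fewer cells that express a gene and less RNA of it per cell cannot be told apart. The fold changes below are on the log2(FPKM + 0.1) scale and were tested with limma over the 16371 genes whose mean reached 0.5 FPKM. The median of these genes lay at 0.12, and at 0.00 once libraries were brought to a common scale by median ratios (called rescaling below), so that a change as deposited stands against 0.12.

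Of the 9 chains, 7 passed the minimum of 0.5 FPKM and were tested, and LAMA3 and LAMA4 did not. With SAR, LAMB1 rose and LAMC1 fell at an adjusted p-value under 0.05, and the other 5 tested chains did not pass. Among all tested genes 23.7% were higher and 9.55% were lower by this rule, so that 1 of 7 chains in each direction is near the background. No chain reached a log2 fold change above 1 or under -1 (0 upregulated and 0 downregulated with limma, and 0 with voom), thresholds that 3.41% and 1.58% of all tested genes passed. At an unadjusted p-value under 0.05 there were 3 chains, LAMB1, LAMC1 and LAMA2. The share of all tested genes under this limit was not counted, so these 3 chains cannot be set against a background. The median log2 fold change of the 7 chains was 0.05, and -0.07 after rescaling.

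**Figure D1:**
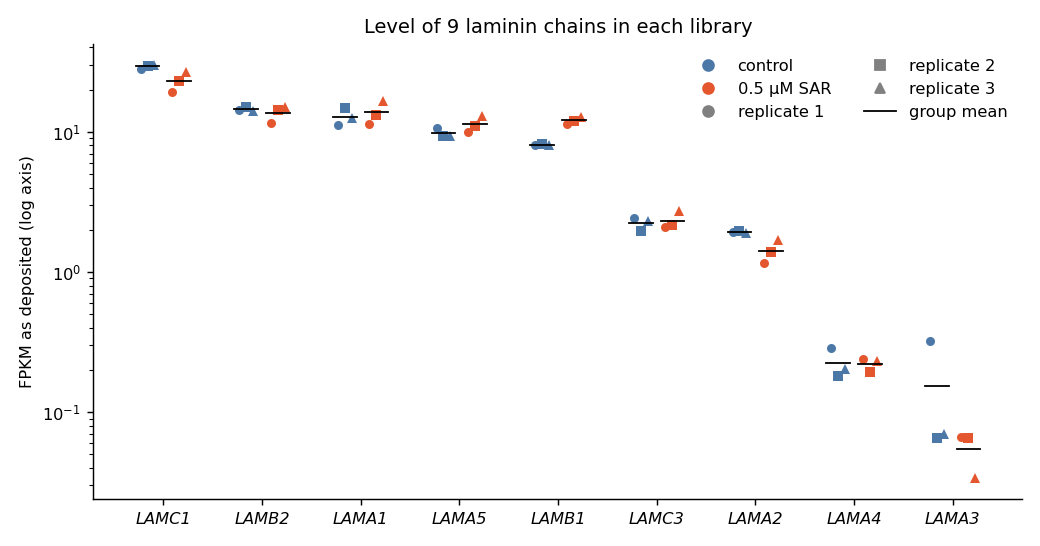
FPKM as deposited (log axis) of the 9 laminin chains in the 3 control libraries (blue) and the 3 libraries with 0.5 µM SAR (red), with 1 symbol for each replicate and a black line at each group mean. LAMC1 was the highest chain in every library, the SAR values of LAMB1 lie above all its control values, and control replicate 1 stands apart for LAMA3.

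By mean FPKM over the 6 libraries the chains spanned a wide range. LAMC1 stood first at 26.1 FPKM, between 19.3 and 30.2, above every library's value of any other chain. LAMB2 (14.1 FPKM), LAMA1 (13.3), LAMA5 (10.5) and LAMB1 (10.1) followed, and the ranges of neighbours in this order overlapped. LAMC3 (2.27 FPKM) and LAMA2 (1.67) formed a low tier, with ranges that overlapped between 1.95 and 1.97 FPKM. LAMA4 (0.222 FPKM) and LAMA3 (0.104) were the lowest and lay under the minimum for testing. The chains of laminin 111 (LAMA1, LAMB1 and LAMC1) and of laminin 511 (LAMA5, LAMB1 and LAMC1) were thus all measured well above the floor in both groups. A floor of 3 reads corresponds to at most 0.0262 FPKM for any of the 9 chains.

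This order depends on the gene length used to make the FPKM. The reads behind the values show that the authors divided LAMB1 by 18592 bases, whereas its exons cover 8140 bases in GENCODE 29 and its longest coding transcript has 5766. For LAMC1, LAMB2, LAMA1, LAMA2 and LAMA5 the length used was within 0.9991 to 1.0048 times the exon cover of GENCODE 29, and for LAMC3 it was 1.18 times. With the longest coding transcript of each gene as the length, LAMB1 was at 26.1 ± 0.199 FPKM (SD, n = 3) in control and 38.9 ± 2.30 with SAR, against 31.4 ± 1.09 and 24.6 ± 3.95 for LAMC1. On that scale LAMB1 was the highest chain in each SAR library and LAMC1 the highest in each control library. Which transcripts of LAMB1 the cells made was not measured. If reads were counted over all 18592 bases, those outside the 5766 bases also raise LAMB1 on that scale, by an amount not known. Fold changes of a gene do not depend on this length, apart from the small effect of the added 0.1.

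Among the beta chains, LAMB1 was the chain with the clearest change. LAMB1 (ENSG00000091136) lies on chromosome 7 from 107923799 to 108003255, on the minus strand in GENCODE 29 on GRCh38, with 32 exons in its longest coding transcript. It encodes the beta 1 chain, which is found in most embryonic laminins. In control replicates 1, 2 and 3 its level was 8.06, 8.16 and 8.04 FPKM. SAR replicates 1, 2 and 3 had 11.4, 12.03 and 12.8 FPKM. Every SAR library was above every control library, and the control libraries lay close together. The mean rose from 8.09 ± 0.0618 (SD, n = 3) to 12.1 ± 0.714 FPKM, which is 0.57 as a log2 fold change (standard error 0.0614, 95% confidence interval 0.42 to 0.71, adjusted p = 0.00148 from limma) or 1.48-fold. After median-ratio rescaling it was 0.45 (adjusted p = 0.0037 from limma), and LAMB1 stayed past the threshold in all 15 alternative fits. Between 2822 and 4372 reads stood behind each value. The authors' strand setting for the counting is not stated, so reads of antisense genes may count here. DLD, an enzyme gene on the opposite strand, shares 70 exon bases with LAMB1. The antisense gene ENSG00000273055 inside LAMB1 shares 221 (2.71% of the LAMB1 exon bases) and also rose, from 1.02, 0.852 and 0.763 FPKM in control to 2.11, 1.89 and 1.83 with SAR (log2 fold change 1.07, adjusted p = 0.00267 from limma). Its part in the LAMB1 values was not tested. Both overlaps refer to the 8140 exon bases of LAMB1 in GENCODE 29. The overlap with the 18592 bases that the authors used is not known. Markers of primitive and parietal endoderm, extraembryonic cells rich in laminin, summed to 1.38 to 2.19 FPKM in control and 2.19 to 2.39 with SAR over 6 genes, none at 0 in all libraries. The control sum of 2.19 FPKM was that of replicate 1, beside 1.46 and 1.38 in replicates 2 and 3. Of these 6 only THBD was tested, and it rose (0.69, adjusted p = 0.0163 from limma). The others, all low, went both ways. SOX7 and AMN were higher in every SAR library than in any control library. CUBN was lower in every SAR library (mean 0.222 FPKM in control and 0.0854 with SAR), and AFP and TTR had lower means with SAR. The part of such extraembryonic cells in the LAMB1 values was not tested.

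LAMB2 (ENSG00000172037; chromosome 3, 49121114 to 49133118, minus strand) encodes the beta 2 chain, known from the kidney filter and the neuromuscular junction. It was at 14.4, 15.03 and 13.97 FPKM in the control libraries and 11.5, 14.3 and 15.2 with SAR. The groups overlapped, and the log2 fold change of -0.09 had a 95% confidence interval of -0.34 to 0.16 (adjusted p = 0.525 from limma). The pseudogene LAMB2P1, close by on the same chromosome from 49140086 to 49160851, is a partial copy and had 1.32 to 2.48 FPKM, so that a small part of the reads of either could be split between them. LAMB1 therefore took a larger share of the beta chains with SAR. Its share of the summed FPKM of LAMB1 and LAMB2 was 35.9%, 35.2% and 36.5% in control and 49.7%, 45.7% and 45.8% with SAR. The means were 35.9 ± 0.67% and 47.0 ± 2.28% (SD, n = 3), a difference of 11.2 percentage points (two-sided exact permutation p = 0.1, the smallest that 3 libraries against 3 can give). A share of this kind does not depend on how libraries are scaled against each other. With transcript lengths from GENCODE 29 the shares were 59.8% and 70.3%, so that LAMB1 was then the larger of the pair in both groups. These shares carry the limit on LAMB1 reads given above.

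**Figure D2:**
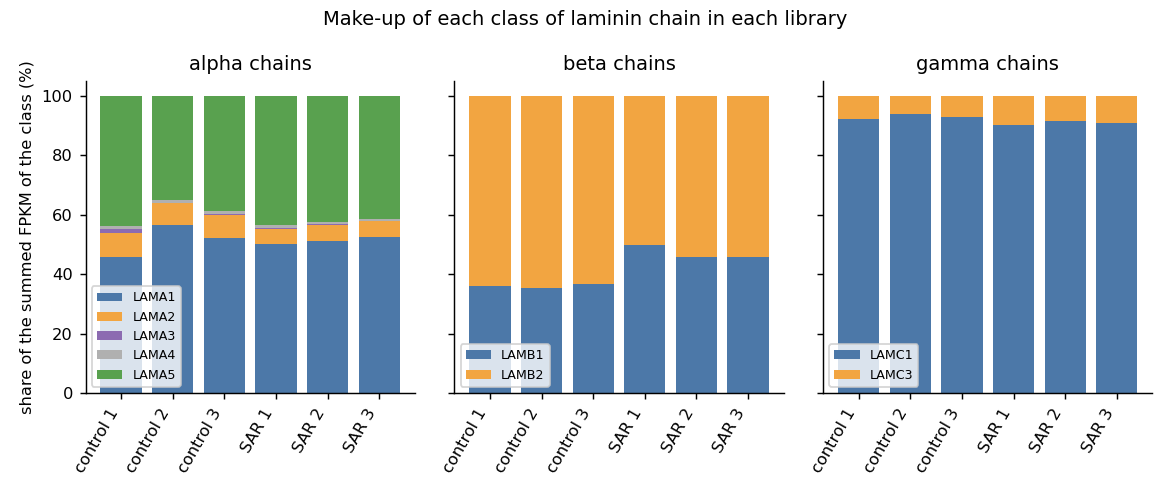
Share of each chain in the summed FPKM of its class (%, stacked to 100) in each of the 6 libraries, for the 5 alpha, 2 beta and 2 gamma chains. The LAMB1 share of the beta chains was between 35.2% and 36.5% in control and between 45.7% and 49.7% with SAR, while the shares of LAMA1 and LAMA5 overlapped between the groups.

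LAMB4 lies beside LAMB1 on the same strand of chromosome 7, with 20292 bases between the end of LAMB4 and the start of LAMB1. LAMB4, a little-studied beta chain outside the 9, had 0 reads in each SAR library and in control replicate 2, 1 in control replicate 3 and 32 in control replicate 1. LAMB3, the beta chain of the laminin of the skin, had 22 to 81 reads per library and a mean of 0.453 FPKM. Neither was tested, because both had a mean under 0.5 FPKM.

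Among the gamma chains, LAMC1 fell. LAMC1 (ENSG00000135862; chromosome 1, 183023460 to 183145592, plus strand) encodes the gamma 1 chain, which almost all laminins outside skin contain. Its level was 28.2, 29.7 and 30.2 FPKM in the control libraries and 19.3, 22.9 and 26.7 FPKM with SAR. All SAR libraries were below all control libraries, with SAR replicate 3 nearest to them. The mean fell from 29.3 ± 1.02 (SD, n = 3) to 22.95 ± 3.69 FPKM, which is -0.36 as a log2 fold change (standard error 0.113, 95% confidence interval -0.63 to -0.10, adjusted p = 0.0457 from limma). This call lies close to the threshold. It was lost without control replicate 1, 2 or 3 (adjusted p = 0.0759, 0.113 and 0.127) and without SAR replicate 1 or 2 (0.0748 and 0.107), and it held without SAR replicate 3 (0.0113), after rescaling (0.0206) and with voom on the recovered reads (0.0134).

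LAMC3 (ENSG00000050555; chromosome 9, 131009082 to 131094473, plus strand) encodes the gamma 3 chain, known from the brain surface and the retina. It was at 2.43, 1.95 and 2.31 FPKM in control and 2.08, 2.16 and 2.71 with SAR. The groups overlapped, and the log2 fold change was 0.05 as deposited and -0.07 after rescaling, with a confidence interval of -0.26 to 0.36 (adjusted p = 0.794 from limma). LAMC3 was 7.06 ± 0.875% of the summed FPKM of LAMC1 and LAMC3 in control and 9.19 ± 0.555% with SAR (exact permutation p = 0.1).

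LAMB1 and LAMC1 changed in opposite directions, so their ratio differed between the groups. The ratio of LAMC1 to LAMB1 in FPKM was 3.50, 3.64 and 3.75 in the control libraries, against 1.70, 1.90 and 2.09 in those with SAR. The groups were farther apart than the libraries within either, with means of 3.63 ± 0.126 and 1.90 ± 0.194 (SD, n = 3; exact permutation p = 0.1). This ratio was chosen after the values of both genes had been seen. With transcript lengths from GENCODE 29 the same ratio went from 1.20 ± 0.0419 to 0.629 ± 0.0643. On that scale, with the limit on LAMB1 reads given above, the higher of the pair differed between the groups.

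The RefSeq promoter windows of LAMB1, which rose, of LAMC1, which fell, and of LAMA2, which was lower in each SAR library without passing the test, are shown to compare their base composition. Each runs from 250 bases before to 50 bases after the annotated start, on the strand of the gene in GRCh38.p14, with matches to the GC box in capitals (GGGCGG on either strand).

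LAMB1, minus strand, chr7:108003112-108003411: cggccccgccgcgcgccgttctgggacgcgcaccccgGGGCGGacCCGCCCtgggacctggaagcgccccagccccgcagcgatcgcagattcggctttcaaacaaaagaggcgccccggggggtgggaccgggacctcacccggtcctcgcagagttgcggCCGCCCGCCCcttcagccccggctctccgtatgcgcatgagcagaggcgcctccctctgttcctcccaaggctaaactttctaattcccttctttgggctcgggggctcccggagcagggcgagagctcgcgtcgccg
LAMC1, plus strand, chr1:183023170-183023469: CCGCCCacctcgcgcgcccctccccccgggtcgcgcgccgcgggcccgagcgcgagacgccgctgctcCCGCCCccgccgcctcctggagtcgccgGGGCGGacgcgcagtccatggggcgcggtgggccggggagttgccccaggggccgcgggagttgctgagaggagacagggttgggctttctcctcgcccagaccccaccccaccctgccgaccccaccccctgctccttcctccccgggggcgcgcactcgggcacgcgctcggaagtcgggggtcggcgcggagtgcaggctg
LAMA2, plus strand, chr6:128882888-128883187: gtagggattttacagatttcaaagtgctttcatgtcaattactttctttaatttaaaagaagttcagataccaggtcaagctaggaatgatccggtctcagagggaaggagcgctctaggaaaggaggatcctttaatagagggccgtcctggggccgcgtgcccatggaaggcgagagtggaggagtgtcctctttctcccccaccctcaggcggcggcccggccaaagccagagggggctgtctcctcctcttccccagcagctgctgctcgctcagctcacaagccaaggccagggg

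LAMB1 and LAMC1, which changed in opposite directions, both have windows rich in CpG, with 35 and 41 CpG in 300 bases, against a median of 14 over the 35116 windows of the table. LAMB1 holds 4 GC boxes, of which 2 overlap, and LAMC1 holds 3, and 45.0% of all windows hold at least 1. The LAMA2 window has 10 CpG and 0 GC boxes. Windows were found for 7 of the 9 chains, and the LAMA5 window was also CpG-rich (41 CpG, 5 GC boxes), whereas those of LAMA4 (8 CpG), LAMA3 (13) and LAMB2 (15) were not. The LAMA3 window, from 23872770 to 23873069 on chromosome 18, lies inside the gene, which begins at 23689443 in GENCODE 29. Its values therefore do not describe the sequence at that first base. None of the 7 windows held the TATA box letters TATAAA, which are in 11.5% of all windows. None held the CCAAT box, found on either strand in 34.6% of windows, or the forkhead letters TGTTTAC, found in 3.42%. The TEAD letters GGAATG were in the LAMA2 window once and in 14.03% of all windows. These are matches of letters and not measured binding.

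The alpha chains were carried by LAMA1 and LAMA5, whose levels did not pass the test. LAMA1 (ENSG00000101680; chromosome 18, 6941744 to 7117814, minus strand), the alpha chain of the first embryonic basement membranes, was at 11.1, 14.9 and 12.6 FPKM in control and 11.4, 13.3 and 16.6 with SAR. Its groups overlapped over most of their range. The log2 fold change was 0.09 as deposited and -0.03 after rescaling (standard error 0.155, confidence interval -0.28 to 0.46, adjusted p = 0.684 from limma). An antisense gene on the opposite strand shares 10.3% of the LAMA1 exon bases and was at 0.0597 to 0.154 FPKM. The part of this antisense gene in the LAMA1 values was not tested.

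LAMA5 (ENSG00000130702; chromosome 20, 62307955 to 62367312, minus strand), an alpha chain of stem cell and epithelial basement membranes, was at 10.6, 9.28 and 9.36 FPKM in control and 9.95, 10.98 and 13.01 with SAR. SAR replicate 1 lay below control replicate 1. The log2 fold change of 0.21 had a confidence interval of -0.05 to 0.46 (adjusted p = 0.181 from limma), and it was 0.08 after rescaling. Its antisense partner LAMA5-AS1 had 1 to 6 reads per library and shares 0.826% of the exon bases. ADRM1, a coding gene on the opposite strand, shares 244 exon bases (1.71%) and was at 21.5 to 27.4 FPKM. The part of either gene in the LAMA5 values was not tested.

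LAMA2 (ENSG00000196569; chromosome 6, 128883141 to 129516569, plus strand), the alpha chain of muscle and Schwann cell basement membranes, was at 1.93, 1.97 and 1.89 FPKM in control and 1.16, 1.38 and 1.69 with SAR. All 3 SAR libraries were below all 3 control libraries, which lay close together. The log2 fold change of -0.44 had a confidence interval of -0.77 to -0.11 and an adjusted p-value of 0.05045 from limma, just over the threshold. It passed in 5 of the 15 alternatives, among them rescaling (-0.55, adjusted p = 0.026 from limma) and voom (-0.46, adjusted p = 0.0109). Between 369 and 499 reads stood behind the control values and between 201 and 321 behind those with SAR. As a share of all alpha chains, LAMA2 was 7.75 ± 0.23% in control and 5.26 ± 0.15% with SAR (exact permutation p = 0.1).

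The shares of LAMA1 and LAMA5 in the alpha chains overlapped between the groups. LAMA1 made up 45.8%, 56.4% and 52.2% in control and 50.0%, 51.2% and 52.5% with SAR (exact permutation p = 1). LAMA5 made up 43.7%, 35.2% and 38.8% and then 43.6%, 42.4% and 41.3% (exact permutation p = 0.4). In both chains the spread between the control libraries was larger than that between the SAR libraries.

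**Figure D3:**
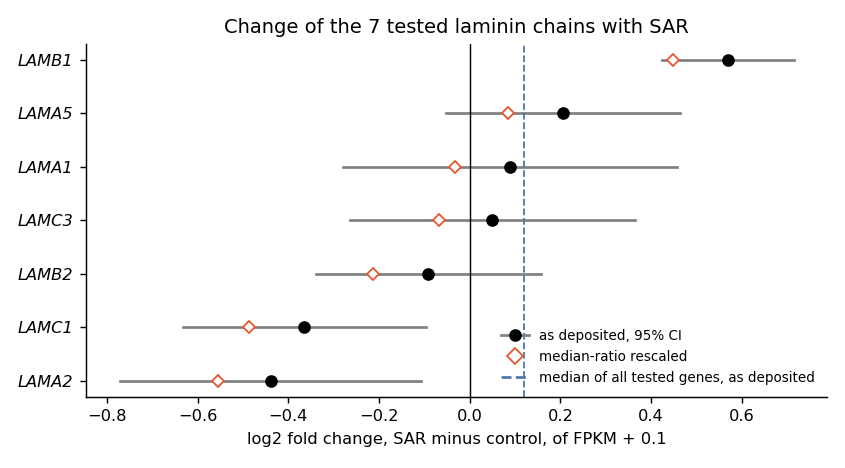
Log2 fold change with SAR of the 7 tested laminin chains on the log2(FPKM + 0.1) scale, with filled circles and 95% confidence intervals for the FPKM as deposited, open diamonds after median-ratio rescaling, and a dashed line at the median of all tested genes (0.12). The interval of LAMB1 (0.42 to 0.71) lies above 0 and above the dashed line, those of LAMC1 and LAMA2 lie below 0, and the other 4 cross 0.

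LAMA4 and LAMA3 were too low for the test. LAMA4 (ENSG00000112769; chromosome 6, 112108760 to 112254939, minus strand), the alpha chain of blood vessel walls, had 75, 53 and 46 reads in control and 48, 39 and 51 with SAR, or 0.223 ± 0.0551 and 0.221 ± 0.0256 FPKM (SD, n = 3). Without a filter on low values its log2 fold change was 0.00 (adjusted p = 0.999 from limma). LAMA3 (ENSG00000053747; chromosome 18, 23689443 to 23956222, plus strand), the alpha chain of skin and other epithelia, had 103, 23 and 19 reads in control and 16, 16 and 9 with SAR. Control replicate 1 stood far above the other 5 libraries. Without a filter the log2 fold change of LAMA3 was -0.56 (adjusted p = 0.546 from limma).

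Control replicate 1 was also the highest library for LAMA4, LAMB3 and LAMB4. It listed 33169 genes above 0 FPKM, against 29506 to 30109 in the other 5 libraries. The basal epithelium markers KRT5, KRT14 and TP63 together had 0.549 FPKM there, against 0.0128 to 0.0656 in the other libraries, and KRT5 was listed at 0 in 3 of them. Some low markers of other cell types were also highest there, so this was not limited to basal epithelium. The mesenchyme marker COL3A1 had 0.209 FPKM there, against 0 to 0.0161 in the other libraries. AFP, from the list of primitive and parietal endoderm, had 0.442 FPKM, against 0.147 to 0.199. SOX7 and THBD of that list were not highest there. The part of these reads in the low chains was not tested.

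**Figure D4:**
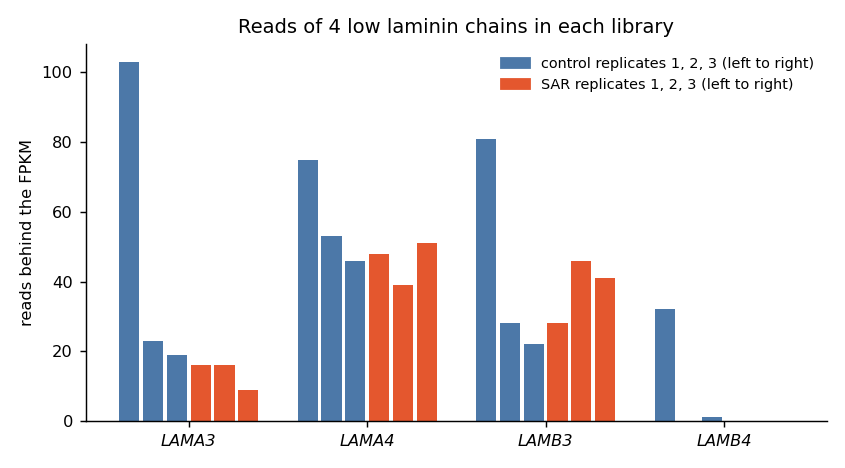
Reads behind the FPKM of LAMA3, LAMA4, LAMB3 and LAMB4 in each library (linear axis from 0), with control replicates in blue and SAR replicates in red. Control replicate 1 is the tallest bar of each gene, at 103, 75, 81 and 32 reads, and LAMB4 has 0 reads in the 3 SAR libraries.

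As sums over a class, the alpha chains had 24.9 ± 1.24 FPKM in control and 26.7 ± 4.40 with SAR (SD, n = 3; exact permutation p = 0.7). The beta chains had 22.6 ± 0.589 and 25.7 ± 2.60 FPKM (exact permutation p = 0.2). The gamma chains LAMC1 and LAMC3 had 31.6 ± 0.917 and 25.3 ± 4.01 FPKM, without overlap between the groups (exact permutation p = 0.1). As deposited, the gamma sum was the largest of the 3 in each control library. In SAR replicates 1, 2 and 3 it was 21.4, 25.05 and 29.4 FPKM, beside beta sums of 22.9, 26.3 and 27.9. The alpha sums there were 22.9, 25.9 and 31.5 FPKM, so that alpha was the largest in SAR replicate 3. These orders depend on the gene lengths used, that of LAMB1 among them. Sums with transcript lengths carry the limit on LAMB1 reads given above. With transcript lengths from GENCODE 29 the beta sum was the largest in all 6 libraries, at 43.6 ± 0.834 FPKM in control and 55.4 ± 4.55 with SAR, and it too did not overlap between the groups (exact permutation p = 0.1), while the gamma sum was 34.7 ± 0.958 and 27.9 ± 4.41 FPKM.

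The SD between SAR libraries was larger than that between control libraries for each of the 7 tested chains. How many of all tested genes did the same was not counted, so this is not shown to be particular to the chains. All 7 tested chains were lowest in SAR replicate 1 and highest in SAR replicate 3 of the SAR libraries, an order seen in 24.4% of all tested genes. The log2 difference between these libraries ranged from 0.17 for LAMB1 to 0.53 for LAMA1, with a median of 0.39 for the 7 chains and 0.01 for all tested genes. Gene length moved with this difference. In the 4234 tested genes at least as long as LAMB2, the shortest of the 7 at 6865 bases, the median difference between SAR replicates 3 and 1 was 0.11, and it was -0.06 in the 4068 genes under 2000 bases. The median log2 fold change with SAR was likewise 0.03 in the long genes and 0.18 in the short ones. Its part in the values of the laminin chains was not tested.

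Laminin receptors were a list of 8 genes, all tested, of which 2 rose and 1 fell with SAR (median 0.08), near the 23.7% and 9.55% of all tested genes. BCAM, the Lutheran glycoprotein that binds LAMA5, rose from 6.02 ± 1.16 (SD, n = 3) to 12.6 ± 0.527 FPKM, with a fold change of 1.07 in log2 units (limma, adjusted p = 0.00237), or 0.95 after rescaling. It was at 7.17, 4.84 and 6.03 FPKM in control and 12.02, 12.7 and 13.1 with SAR, so that the groups were well apart. ITGA6, the alpha 6 integrin subunit that pairs with ITGB1 or ITGB4 to bind laminin, rose from 11.6 ± 1.45 to 16.3 ± 1.90 FPKM (0.49, adjusted p = 0.0224), a call that was lost without a filter on low values (limma, adjusted p = 0.0543). ITGB1, the beta 1 integrin subunit shared by most matrix receptors, fell from 39.1 ± 1.31 to 27.0 ± 2.15 FPKM (-0.54, adjusted p = 0.00263). The other 5 receptors did not pass. ITGA7 was at 0.27 (adjusted p = 0.115), and DAG1, which encodes dystroglycan, was at -0.01 with 27.1 ± 2.18 FPKM in control and 27.05 ± 3.75 with SAR.

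Of 19 basement membrane partners, 17 were tested, of which 6 rose and 4 fell, with a median of 0.20, against 23.7% and 9.55% of all tested genes. After rescaling 4 rose and 4 fell, against 13.8% and 15.5% of all tested genes. The collagen IV chains, which form the network that laminin is tied to, divided by gene pair. COL4A1 fell from 36.0 ± 3.19 to 26.9 ± 1.58 FPKM (-0.42, adjusted p = 0.00917 from limma), and COL4A2 fell likewise (-0.38, adjusted p = 0.0126). COL4A3 (2.66, adjusted p = 0.000737) and COL4A4 (2.45, adjusted p = 0.000522) rose from low levels, from 0.295 ± 0.0957 to 2.37 ± 0.408 and from 0.493 ± 0.151 to 3.08 ± 0.0601 FPKM. COL4A5 and COL4A6 rose by 0.29 and 0.43, and COL4A5 lost its call after rescaling (0.17, adjusted p = 0.0916). SMOC2, a small calcium-binding matrix protein, rose from 0.316 ± 0.0544 to 1.37 ± 0.213 FPKM (1.82, adjusted p = 0.00187). HSPG2, which encodes perlecan, was at 3.62, 5.86 and 7.33 FPKM in SAR replicates 1, 2 and 3, in the same order as the laminin chains, and between 8.48 and 9.93 in control (-0.77, adjusted p = 0.0436), a call also lost without the filter (limma, adjusted p = 0.105). The nidogens NID1 (0.13, adjusted p = 0.26) and NID2 (0.43, adjusted p = 0.149), which bind the gamma 1 chain, did not pass.

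Netrins share the N-terminal domains of laminin chains. Of 6 netrins, NTN1 and NTN4 had a mean above the minimum of 0.5 FPKM and were tested. NTN1, a secreted guidance protein, fell from 16.2 ± 2.22 to 5.74 ± 0.643 FPKM (log2 fold change -1.48, adjusted p = 0.000672 from limma). NTN4, a netrin that binds laminin gamma chains, was at -0.30 (adjusted p = 0.104).

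**Figure D5:**
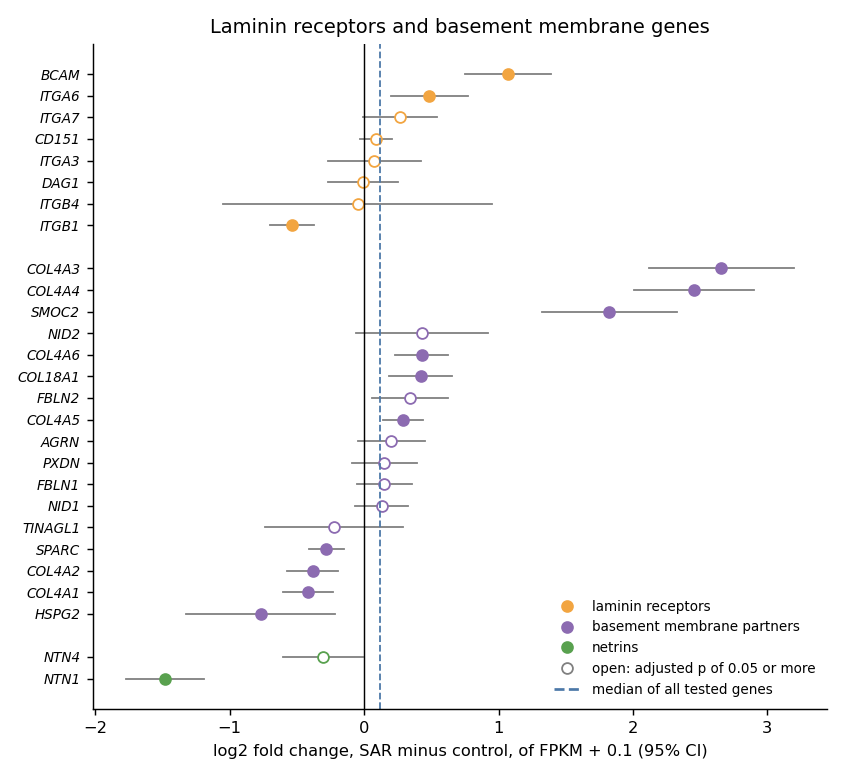
Log2 fold change with SAR (points, with 95% confidence intervals) of the tested laminin receptors (orange), basement membrane partners (purple) and netrins (green), filled where the adjusted p-value was under 0.05, with a dashed line at the median of all tested genes. BCAM (1.07) and ITGB1 (-0.54) stand at the ends of the receptors, and COL4A3 (2.66) and NTN1 (-1.48) at the ends of the whole set.

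The genes whose levels over the 6 libraries were most like LAMB1, among 7071 other genes at a mean of 5 FPKM or more, were NLGN4X (Pearson r = 0.9988), TYRO3 (0.9987) and SGSM2 (0.9978). With LAMC1 they were MPRIP (0.998), CEP170B (0.9964) and TBC1D1 (0.9918). Over 6 libraries in 2 groups such values are common, and 1075 genes had an r over 0.9 with LAMB1 and 466 with LAMC1. They describe a shared pattern over these libraries only.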

How the data were processed

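RNA-seq was analysed in 3 control and 3 SAR libraries of H1 cells at day 3, grouped by their titles. The authors selected mRNA with oligo(dT) beads and deposited FPKM per gene, 1 column per library, without further scaling. Their processing notes name HISAT2, featureCounts, Subread and DESeq2 and the build GRCh38.p13, and versions, annotation release and strand setting are not given in the sources used here. Gene symbols were matched by Ensembl ID to a reference table (40304 IDs), and positions from GENCODE 29 on GRCh38. One gene that the same rule covers is not reported here.

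Because FPKM are not counts, limma 3.58.1 in R 4.3.3 (eBayes with an intensity trend) was run on log2(FPKM + 0.1) for genes whose mean reached 0.5 FPKM, with Benjamini-Hochberg adjustment over all tested genes. Chains were called higher or lower at an adjusted p-value under 0.05. The FPKM are whole reads divided by a gene length and a library total: totals were taken from the smallest steps of low genes, and for 99.96% of the genes a length gave whole reads in all libraries (within 0.02). Recovered reads cover counting error only. Shares, sums and ratios were compared with two-sided exact permutation tests. The fit was also run on simulated counts with a fixed spread and with changes larger than those of the laminin chains. That run therefore does not bear on calls of the size reported here. Python 3.11.15 with pandas 2.3.3 was used for summaries.

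The members and lists were chosen with earlier results of these data known. Named genes were all members, LAMB3 and LAMB4, the 4 genes with the smallest adjusted p-values of each list, overlapping genes, cell type markers and the 3 genes most like 2 chains. DAG1, COL4A2, COL4A5, COL4A6, HSPG2, NID1 and NID2 fall outside this rule and were named after their values were seen. The pseudogene LAMB2P1 also falls outside it.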

Additional observations from a re-analysis of the deposited data

How the results depend on the processing

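LAMB1 was higher and past the threshold in all 15 alternatives, from 0.45 to 0.61 on the log2 scale. One chain was lower in the fit reported. There were 2 with a pseudocount of 1, median-ratio rescaling, quantile normalization and voom on recovered reads, where LAMA2 joined LAMC1, 0 without a filter and 0 without an intensity trend, and between 0 and 2 with each library left out in turn. LAMC1 lay between -0.49 and -0.25 over its alternatives, with adjusted p-values from 0.0113 to 0.127, and 7 of 15 lost the call. Directions of uncalled chains turned for LAMA1 after rescaling (-0.0335) and with single libraries left out (-0.053 to 0.212), for LAMB2 with single libraries left out (-0.171 to 0.026), and for LAMC3 after rescaling (-0.0679), after quantile normalization (-0.119) and with single libraries left out (-0.0636 to 0.119). The cause was not tested.

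Over all genes, 3885 were higher and 1563 lower in the fit reported. Rescaling gave 2259 and 2538, and quantile normalization gave 2429 higher, and leaving out 1 library gave 2129 to 3751 higher and 833 to 1824 lower. The 559 upregulated genes became 169 with a pseudocount of 1, 369 with a minimum mean of 1 FPKM and 340 after quantile normalization, and the 259 downregulated genes became 141 and 409 with the first and the last of these. The difference in the LAMA2 share of the alpha chains was -1.77 percentage points as reads and -1.85 with transcript lengths, against -2.48 as FPKM. The difference in summed beta chains was 1.1 FPKM after rescaling and 11.8 with transcript lengths, against 3.16, and that in the ratio of LAMC1 to LAMB1 was -0.576 with transcript lengths, against -1.73. Transcript lengths were chosen after the data had been seen. The difference in summed alpha chains, 1.83 FPKM, turned to -0.394 after rescaling and -0.557 without SAR replicate 3, and that in the LAMA5 share ranged from 1.16 to 5.42 points with single libraries left out, against 3.18, and that in the LAMA1 share from -3.06 to 2.22, against -0.227, all within 1 SD of the spread between replicates.

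The replicate numbers shared by the groups did not pair the libraries: the correlations of same-numbered deviations were 0.0729, 0.00286 and 0.0248. With a replicate block 1 chain was higher and 1 lower, as without it (LAMB1 at adjusted p = 0.00674 and LAMC1 at 0.0289 from limma). Depth limits LAMA3, LAMA4, LAMB3 and LAMB4, which rested on 0 to 103 reads per library.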
